A study of Homo sapiens with 2 samples.

Results

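The genes described here encode 10 secreted proteins of the acute-phase response and of epithelial defence, namely SAA1, SAA2, SAA4, CP, HP, LCN2, PI3, SLPI, C3 and CFB. They were taken by symbol from a table of 60671 genes, and all 10 were found in it. The list was drawn up with the difference between the same pair of libraries already known, so the ratios of these genes are given as a description and no test was made on them.

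The libraries came from C4-2B cells, an established human line of castration-resistant prostate cancer, and the question was how its transcripts change when the tyrosine kinase ACK1 (TNK2) is inhibited. The vehicle group was 1 library of vehicle-treated cells, and the (R)-9b group was 1 library of cells kept overnight in 1 µM (R)-9b, a small-molecule ACK1 inhibitor. Both were grown in medium with fetal bovine serum, and RNA was sequenced as paired reads of 150 bases after poly-A selection. There was no replicate of either condition, so the spread between cultures is unknown, and every interval below covers counting error only.

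Acute-phase proteins are plasma proteins whose level shifts during infection or injury, and most are made by the liver in response to cytokines such as interleukin-6 and interleukin-1. Many are also made by epithelia, where they are released together with protease inhibitors and metal-binding proteins that limit microbes and neutrophil enzymes. Transcription of several of these genes is known to use NF-κB, STAT3 and C/EBP factors.

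The vehicle and (R)-9b libraries held 65207444 and 57653965 gene counts, so that 1 count stood for 0.0150 and 0.0177 CPM (counts in each 1000000 of the library) after scaling by the trimmed mean of M values (TMM). The share of mitochondrially encoded genes was 1.49% with vehicle and 9.54% with (R)-9b, and the part of this shift in the results was not tested. The labels name breast cancer as the cell type, but all 11 prostate epithelial markers were detected in both libraries, with KLK3 (prostate-specific antigen) at 2202 and 5273 CPM, and they summed to 6128 and 10660 CPM. The 7 breast epithelial markers summed to 165 and 216 CPM, most of it ERBB2 (151 and 206 CPM), with TRPS1 at 13.6 and 9.14 CPM. GATA3 had 38 and 30 counts, PGR had 10 and 2, ESR1 had 2 and 2, and SCGB2A2 and ANKRD30A had 0 counts in both. A gene is called higher or lower below only where the whole 95% interval of its ratio, (R)-9b over vehicle, lay beyond 2-fold and the gene had at least 10 counts in the pair. In bulk RNA, more cells expressing a gene and more RNA per cell cannot be told apart.

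Of the 10 genes, 9 had at least 10 counts over both libraries and were compared. SAA1, SAA2, CP, PI3 and CFB were higher with (R)-9b, none was lower, and SLPI, LCN2, C3 and HP passed neither limit. These 5 make up 55.6% of the genes compared, and the background over all 23446 genes compared was 4.2% higher and 3.44% lower. Nothing is read from that contrast, because the genes were picked on it. The median log2 ratio was 3.82 over the 9 genes and -0.0049 over all genes, with 3 counts put in place of any lower count. In the vehicle library 7 of the 10 genes had fewer than 10 counts, whereas SLPI and LCN2 were well expressed there.

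**Figure D1:**
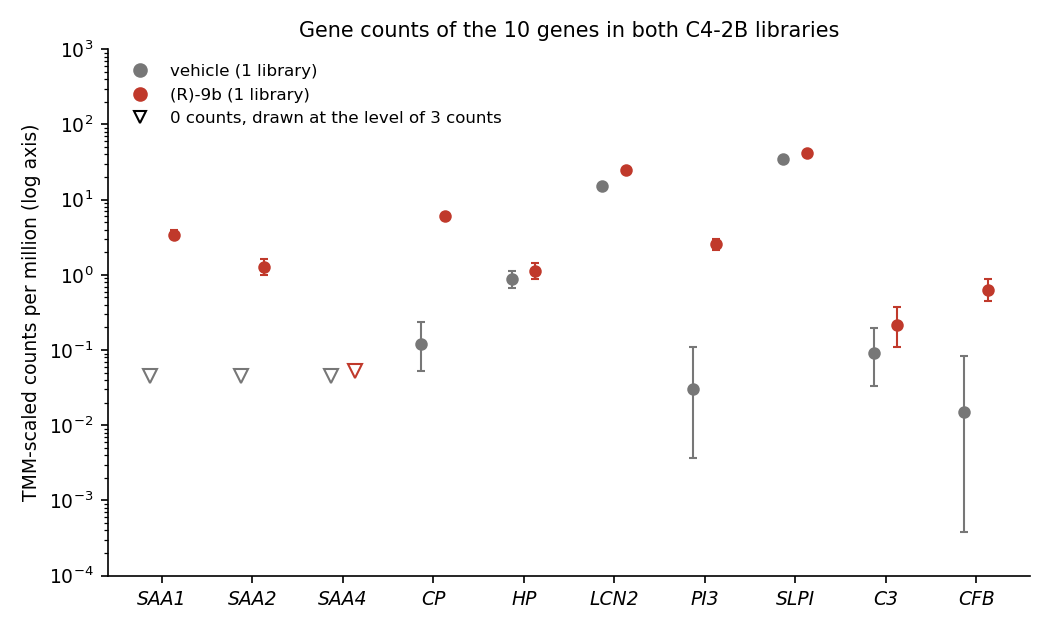
TMM-scaled CPM (log axis) of each gene with vehicle (grey) and with (R)-9b (red), with exact 95% Poisson intervals for counting error. Open triangles mark 0 counts and are drawn at the level of 3 counts. SLPI and LCN2 stand at 14.99 CPM or more in both libraries, and SAA1, SAA2, CP and PI3 pass 1 CPM with (R)-9b from 0.120 CPM or less.

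The serum amyloid A genes gave the clearest on-off pattern. SAA1 and SAA2 encode the inducible serum amyloid A proteins, small apolipoproteins of high-density lipoprotein that rise steeply in inflammation, and SAA4 encodes the constitutive form made in liver. All lie in a cluster on chromosome 11 (GRCh38), with SAA1 at chr11:18266174-18269977 on the plus strand, SAA2 at chr11:18239223-18248643 on the minus strand and SAA4 at chr11:18231349-18236893 on the minus strand. Because SAA1 and SAA2 are close copies, the stretch of their coding sequence in exon 4 that best separates them is shown, with capitals at the bases that differ.
SAA1: GatgccagagagaatatccagagaTtcTTT
SAA2: AatgccagagagaatatccagagaCtcACA
The SAA1 stretch is chr11:18269718-18269747 on the plus strand and the SAA2 stretch is chr11:18245485-18245514 on the minus strand. From SAA1 to SAA2 the substitutions are G232A, T256C, T259A, T260C and T261A, counted from 1 at the A of the start codon. The coding sequences of SAA1-201 and SAA2-201 are each 366 bases long, differ at 11 bases (97.0% identity) and share an identical run of 186 bases, which is longer than a read. Of all windows of 150 bases in SAA1-201, 7.94% also occurred in SAA2, whereas 29% of those in SAA2-201 occurred in SAA1 or in the readthrough gene SAA2-SAA4.

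SAA1 went uncounted (0) under vehicle and had 194 counts (3.44 CPM) with (R)-9b. Set against 3 counts in the vehicle library, it was 76.2-fold higher, and its interval began at a log2 ratio of 5.94, which is a ratio of 61.4. Among the 23446 genes compared, SAA1 stood at rank 1 for the end of the interval nearest 0. SAA2 had 0 and 72 counts (0 and 1.27 CPM), which is 28.3-fold higher set against 3 counts, with an interval beginning at 4.49. Of 31352 genes at 0 in the vehicle library, 160 reached 10 counts with (R)-9b, 3 reached the count of SAA2 and 1, SAA1 itself, reached the count of SAA1.

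SAA4, SAA2-SAA4 and the neighbouring gene MRGPRX4 had 0 counts in both libraries, and the pseudogene SAA3P had 0 and 1. For SAA4 such a count allows up to 0.0451 CPM in the vehicle library and 0.0531 CPM with (R)-9b, and 57.1% of its windows also lie in SAA2-SAA4, so reads from those windows could not be counted for it. Summed over SAA1, SAA2, SAA2-SAA4 and SAA4, which leaves aside how the counted reads were divided among the copies but not any ambiguous reads left uncounted, the cluster had 0 and 266 counts (4.71 CPM with (R)-9b) and was at least 105-fold higher. HPS5, 8.69 kb from SAA1, had 1878 and 1555 counts and a log2 ratio of -0.03, with a 95% interval from -0.13 to 0.06.

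The transcript table, in which reads shared by transcripts are divided by estimation, also placed the reads in both SAA genes. SAA1 transcripts summed to 0 estimated counts in the vehicle library and 82.4 with (R)-9b, of which SAA1-201 took 73.4 and SAA1-202 took 9.07. SAA2 transcripts summed to 0 and 35.6, and these were spread over SAA2-202 (15.4), SAA2-205 (12.5), SAA2-206 (4.36) and SAA2-204 (3.28), with 0 for SAA2-201. SAA1 made up 72.9% of the gene counts of the pair and 69.9% of their estimated counts. SAA4 and SAA2-SAA4 had 0 estimated counts in both libraries.

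Among the metal and haemoglobin carriers, CP was higher while LCN2 and HP passed neither limit. CP (chr3:149162410-149222055, minus strand) encodes ceruloplasmin, the copper-carrying ferroxidase of plasma. Its counts were 8 under vehicle and 338 with (R)-9b, 0.120 and 5.99 CPM, a 49.8-fold ratio with a 95% interval of 25 to 116. The last exons of CP and HPS3 overlap on opposite strands over 1418 bases, 19.4% of the exon bases of CP, and the strand setting of the counting is not given in the sources used here. HPS3 had 2750 and 2827 counts, a log2 ratio of 0.28 (95% interval 0.20 to 0.35).

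In the transcript table CP summed to 0 estimated counts in the vehicle library and 110 with (R)-9b. The retained-intron transcript CP-212 took 82.5% of these, all retained-intron transcripts together took 91.0%, and the protein-coding CP-209 took 9.04%. The rows used hold 14 CP transcripts, where 15 are annotated. CP-201, the full-length coding transcript, is not among those rows, so its level was not analysed here. These shares therefore do not give the balance of coding and intron-retaining CP RNA. The neighbour TM4SF18, 96.4 kb away, had 8 and 50 counts, a log2 ratio of 2.88 (95% interval 1.79 to 4.17), and was also higher. HLTF, 75.9 kb away on the other side, had 8684 and 5869 counts and passed neither limit.

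LCN2 (chr9:128149071-128153455, plus strand) encodes lipocalin-2, which binds bacterial siderophores and so withholds iron from microbes. It had 998 and 1417 counts, 14.99 CPM in the vehicle library and 25.1 CPM with (R)-9b. Its log2 ratio lay at 0.74, between 0.63 and 0.86 by the 95% interval, above 0 by counting error alone and below the 2-fold limit throughout. Its transcripts summed to 347 and 493 estimated counts, of which the coding LCN2-201 took 300 and 442, while the non-coding LCN2-204 had 27.2 and 5.41. The flanking genes PTGES2 and C9orf16 had log2 ratios of 0.19 and 0.28.

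HP (chr16:72054592-72061055, plus strand) encodes haptoglobin, the plasma scavenger of free haemoglobin. It had 58 and 64 counts, a log2 ratio of 0.38 with a 95% interval of -0.16 to 0.92, so a difference was not detectable at this depth. Its copy HPR, 2.09 kb away, had 1177 and 1147 counts. In the transcript table HP summed to 2.24 and 3.31 estimated counts and HPR to 464 and 442. Gene counts per estimated count were thus 25.9 and 19.3 for HP, but 2.54 and 2.60 for HPR. The rows used hold 16 HP transcripts, where 18 are annotated. The level of HP is therefore uncertain, and the source of the gap was not tested.

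The antiproteases PI3 and SLPI lie within one gene cluster on chromosome 20. PI3 (chr20:45174876-45176544, plus strand) encodes elafin, an epithelial inhibitor of neutrophil elastase and proteinase 3. Its counts were 2 under vehicle and 145 with (R)-9b, 0.0300 and 2.57 CPM, an 85.5-fold ratio with a 95% interval of 23.2 to 713. Its single transcript had 1 and 52 estimated counts. The breadth of the interval comes from the 2 vehicle counts.

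SLPI (chr20:45252239-45254564, minus strand) encodes secretory leukocyte protease inhibitor, which also blocks neutrophil elastase. It had 2328 and 2350 counts, 35.0 and 41.6 CPM, a log2 ratio of 0.25 (95% interval 0.17 to 0.33). That difference is past counting error but far inside the 2-fold limit. Between PI3 and SLPI, the semenogelin gene SEMG1 had 15 and 55 counts and was higher at a log2 ratio of 2.11 (95% interval 1.27 to 3.04). SEMG2 (18 and 27 counts), WFDC12 (6 and 6) and MATN4 (77 and 73) passed neither limit.

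Of the complement genes, CFB was higher and C3 was too thinly counted to compare closely. CFB (chr6:31945650-31952084, plus strand) encodes factor B, the serine protease of the alternative pathway convertase. Its counts were 1 under vehicle and 36 with (R)-9b, 0.0150 and 0.638 CPM, a 42.4-fold ratio with a 95% interval of 7.15 to 1723. CFB shares 2249 exon bases (45.0% of its own) with the readthrough gene AL645922.1, which had 0 counts in both libraries, and 77.4% of the windows of CFB-271 also lie in that gene. A rule that keeps only unambiguous reads cannot count those windows for CFB.

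The estimated counts of CFB were larger than its gene counts, at 12 in the vehicle library and 232 with (R)-9b, a log2 ratio of 4.52 (95% interval 3.69 to 5.50). They were divided between the primary chromosome (0 and 144) and alternate-haplotype copies (12 and 88.1), the vehicle estimate lying wholly on the alternate transcript CFB-224. With (R)-9b the coding CFB-271 took 120. CFB had 0.155 gene counts per estimated count with (R)-9b, against 2.80 for SLPI, 2.87 for LCN2, 2.79 for PI3, 2.35 for SAA1, 2.02 for SAA2 and 3.07 for CP. The CPM of CFB is therefore not on the footing of the others, whereas both tables placed it past the 2-fold limit. The neighbours C2 (32 and 19 counts), NELFE (6652 and 4324) and ZBTB12 (961 and 531) passed neither limit.

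C3 (chr19:6677704-6730562, minus strand) encodes the central complement protein cleaved by the convertases. It had 6 and 12 counts, 0.0901 and 0.213 CPM, and its log2 ratio of 1.24 carried a 95% interval of -0.29 to 2.94. A difference was not detectable at this depth. Its estimated counts were 0 and 1.51, all on retained-intron transcripts. The rows used hold 17 C3 transcripts, where 18 are annotated, so this does not give the balance of coding and intron-retaining C3 RNA.

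**Figure D2:**
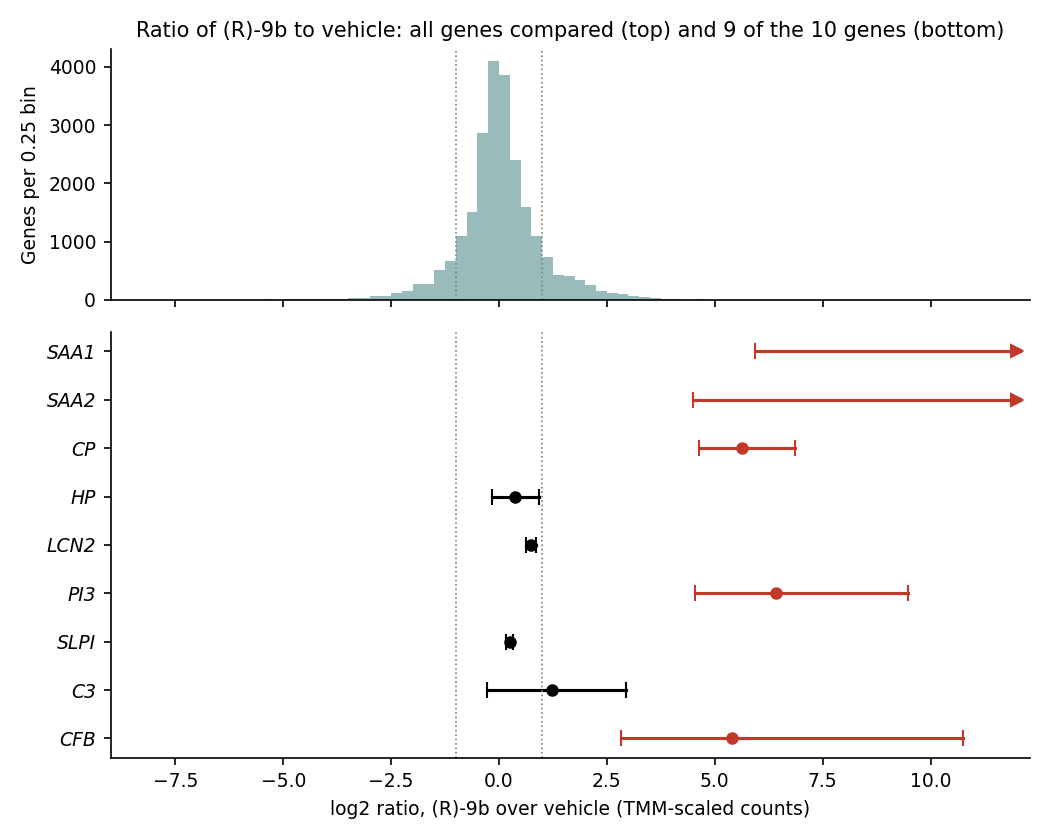
Log2 ratio of TMM-scaled counts, (R)-9b over vehicle, for all 23446 genes compared (top, genes per bin, 3 counts in place of a lower count) and for 9 of the 10 genes with exact 95% intervals (bottom; red, called higher). Dotted lines mark 2-fold, and arrows mark intervals with no upper end. SAA1, SAA2, CP, PI3 and CFB lie beyond the right-hand line, and HP, LCN2 and SLPI lie inside both lines.

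**Figure D3:**
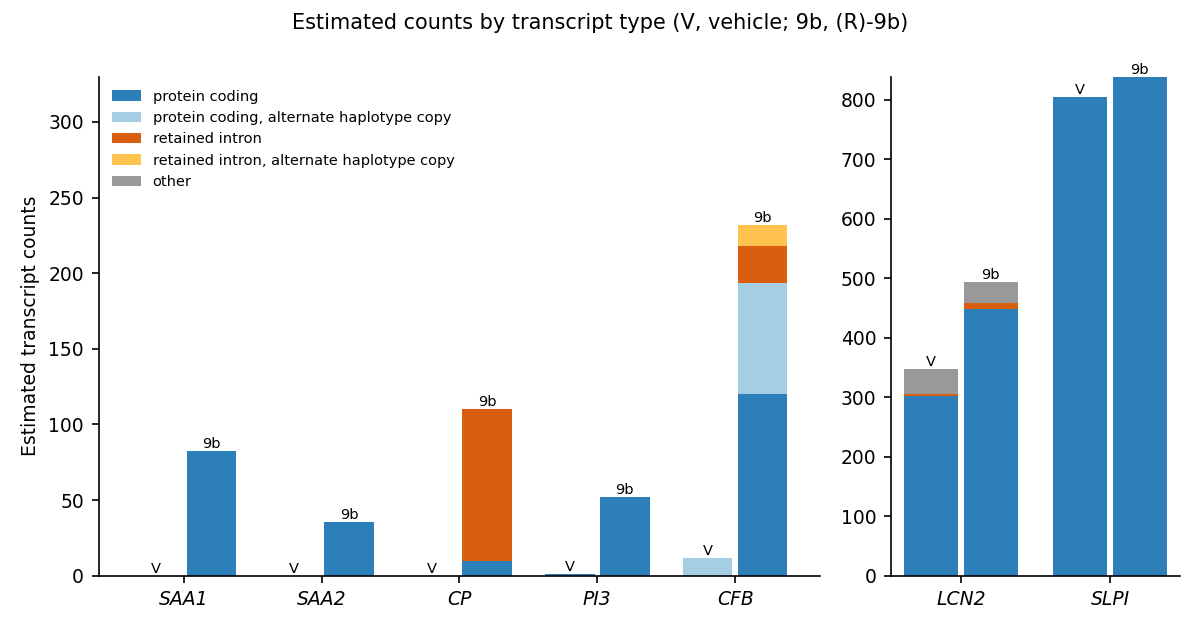
Estimated counts summed by transcript type with vehicle (V) and with (R)-9b (9b), with a separate axis for LCN2 and SLPI. Coding transcripts make up SAA1, SAA2, PI3 and SLPI, retained-intron transcripts take 91.0% of the CP estimate, and part of CFB lies on alternate-haplotype copies. The full-length coding transcript CP-201 is not among the CP rows used.

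Levels were compared between genes per kilobase of annotated exons, taken over all transcripts of a gene, which came to 796 bases for SAA1 and 2227 for SAA2. The values rest on gene counts, so they carry the limits given above for CFB and HP. They also depend on the length used, since single coding transcripts such as SAA1-201 (615 bases) and SAA2-201 (563 bases) are shorter. In the vehicle library SLPI stood at 58.7 CPM per kilobase and LCN2 at 9.38, followed by HP at 0.161 and PI3 at 0.0521, whose intervals overlapped. CP (0.0165), C3 (0.0108) and CFB (0.00301) followed, each with an interval overlapping that of its neighbour, and the SAA genes were at 0. With (R)-9b, SLPI (69.8) and LCN2 (15.7) again led. PI3 at 4.45 (95% interval 3.76 to 5.24) and SAA1 at 4.32 (3.73 to 4.97) came next and did not differ beyond counting error. CP stood at 0.820 and SAA2 at 0.573, with intervals that did not overlap. For CP the exons came to 7296 bases and CP-201 is 4676 bases long, so the order of CP and SAA2 depends on the length used. HP was at 0.210, CFB at 0.128 and C3 at 0.0255, but the place of CFB depends on the table, since its 232 estimated counts with (R)-9b exceed those of CP (110), SAA1 (82.4) and PI3 (52).

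The largest ratios and the largest gains in CPM fell on different genes. LCN2 gained 10.1 CPM and SLPI 6.66 CPM, more than CP (5.87), SAA1 (3.44) or PI3 (2.54). Summed CPM of the 10 genes was 51.1 in the vehicle library and 82.0 with (R)-9b. SAA1, SAA2, CP, PI3 and CFB held 0.324% of that sum in the vehicle library and 17.0% with (R)-9b, and SLPI with LCN2 held 97.8% and 81.4%.

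Promoter sequence was read for the members with an entry in the RefSeq table used (GRCh38.p14), which were 3 of the 10, CFB, LCN2 and SAA4. The window ran from 250 bases before the start to 50 after it, and letters were searched on both strands for GGGA followed by any 4 bases and CC (κB-like), TTCNNNGAA (STAT-like) and TTNNGNAA (C/EBP-like). The matches in CFB and LCN2 are shown because NF-κB and STAT3 are known regulators of this class, with capitals at the match.
CFB κB-like: ggtactgaagGGGAGAGTCCtggacctttg
CFB κB-like, opposite strand: cagctcagcgGGGCCCTCCCgcttggatgt
CFB STAT-like: ccgcttggatgTTCCGGGAAagtgatgtgg
LCN2 κB-like: gcagcactccGGGAATGTCCctcactctcc
LCN2 C/EBP-like, opposite strand: gtccctctgtcTTGCCCAAtcctgaccagg
The CFB matches begin 185, 111 and 92 bases upstream of the RefSeq start, in chr6:31945900-31945929, chr6:31945974-31946003 and chr6:31945992-31946021 on the plus strand. Those of LCN2 begin 176 and 143 bases upstream, in chr9:128149267-128149296 and chr9:128149299-128149328 on the plus strand, and a κB-like match on the opposite strand overlaps the former at 175. For both genes the RefSeq start lies downstream of the start of the GENCODE gene span given earlier. All these CFB and LCN2 matches lie inside those spans, so by the GENCODE annotation they are not upstream of the gene. SAA4 held 6 C/EBP-like matches and no κB-like or STAT-like match. Of all 35116 promoters in the table, 25.6% held the κB-like letters, 7.66% the STAT-like letters and 36.8% the C/EBP-like letters, so the κB-like and C/EBP-like matches are common. A match says only that these letters are present.

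Of the other acute-phase genes with enough counts to compare, none was higher with (R)-9b. Of 20 listed, 11 were compared, 0 were higher and 3 were lower, and the median log2 ratio was -1.4. For this list and those below, the share over all 23446 genes compared was 4.2% higher and 3.44% lower. A count of 0 in so short a list is near that share, and nothing is read from it. ORM1 (alpha-1-acid glycoprotein) had 0 and 9 counts, under the minimum of 10 and so without a call. Set against 3 counts its ratio was 3.54, and its interval began at a log2 ratio of 1.22. A2M, with 0 and 5 counts, was also under the minimum, with an interval beginning at 0.11. SERPINA3 (10 and 0 counts), LBP (28 and 9), PTX3 (33 and 10) and ITIH3 (64 and 26) passed neither limit, with intervals wholly below 0. SERPINA1 (alpha-1-antitrypsin) had 55 and 2 counts, a log2 ratio of -4.54 with a 95% interval from -7.62 to -2.62. FGG (fibrinogen gamma chain) had 30 and 4 counts (log2 ratio -2.67), and AGT (angiotensinogen) had 441 and 95 (log2 ratio -1.98). Of 8 negative acute-phase genes, whose products fall in inflammation, 4 were compared and TF (transferrin) was higher, with 11 and 48 counts and a log2 ratio of 2.36 (95% interval 1.398 to 3.458).

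Complement genes other than C3 and CFB mostly passed neither limit, as did most of all genes compared. Of 24 components listed, 12 were compared, 0 were higher and 1 was lower, C5, with 183 and 30 counts (log2 ratio -2.37, 95% interval -2.98 to -1.81). Of 13 complement inhibitors, 6 were compared, with a median log2 ratio of 0.44, and all 13 summed to 286 and 340 CPM. Among them CD55 (decay-accelerating factor, which breaks up the C3 convertase) was lower, with 2863 and 354 counts (log2 ratio -2.78, 95% interval -2.94 to -2.62).

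Other epithelial defence genes went both ways. Of 41 listed, 18 were compared, 4 were higher and 2 were lower. PGLYRP2 (a peptidoglycan-cleaving amidase) had 356 and 1740 counts, a log2 ratio of 2.53. PIGR (the receptor that carries polymeric immunoglobulin across epithelia) had 54 and 226 (log2 ratio 2.30), and S100A9 (a calprotectin subunit) had 38 and 106 (log2 ratio 1.72). CHI3L2, a chitinase-like protein, had 0 and 13 counts and was 5.11-fold higher set against 3 counts. LTF (lactoferrin, an iron-binding protein like LCN2 in purpose) was lower with 350 and 52 counts (log2 ratio -2.51), as was DUOXA2 (a maturation factor of an epithelial peroxide-producing oxidase) with 42 and 8 (log2 ratio -2.16).

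Of 23 genes listed as inducing cytokines and receptors, 16 were compared and none passed either limit. Several of the cytokines themselves could not be compared. IL6, OSM, IL17A and IL22 had 0 counts in both libraries, and IL1A (2 and 0) and IL1B (4 and 4) were under the minimum. Of 26 transcription regulators, 24 were compared, 2 were higher and 5 were lower. NFKBIZ (IκBζ, a nuclear co-regulator of NF-κB target genes) had 247 and 823 counts, a log2 ratio of 1.97 (95% interval 1.77 to 2.19), and NFKB2 had 4829 and 9766 (log2 ratio 1.25). HNF4A, a hepatocyte nuclear factor, had 146 counts and 1 count, a log2 ratio of -6.95 with a 95% interval of -12.3 to -4.45. The glucocorticoid receptor gene NR3C1 (96 and 14 counts, log2 ratio -2.54) was also lower, as were CEBPB (9106 and 2351, log2 ratio -1.72) and CEBPG (11035 and 3313, log2 ratio -1.50). The 15 lists hold 235 genes besides the 10 described here, and 143 were compared. Of these, 9.09% were higher and 11.2% lower, beside 4.2% and 3.44% of all genes compared. The lists were written with earlier results of these data known, so nothing is read from that difference.

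**Figure D4:**
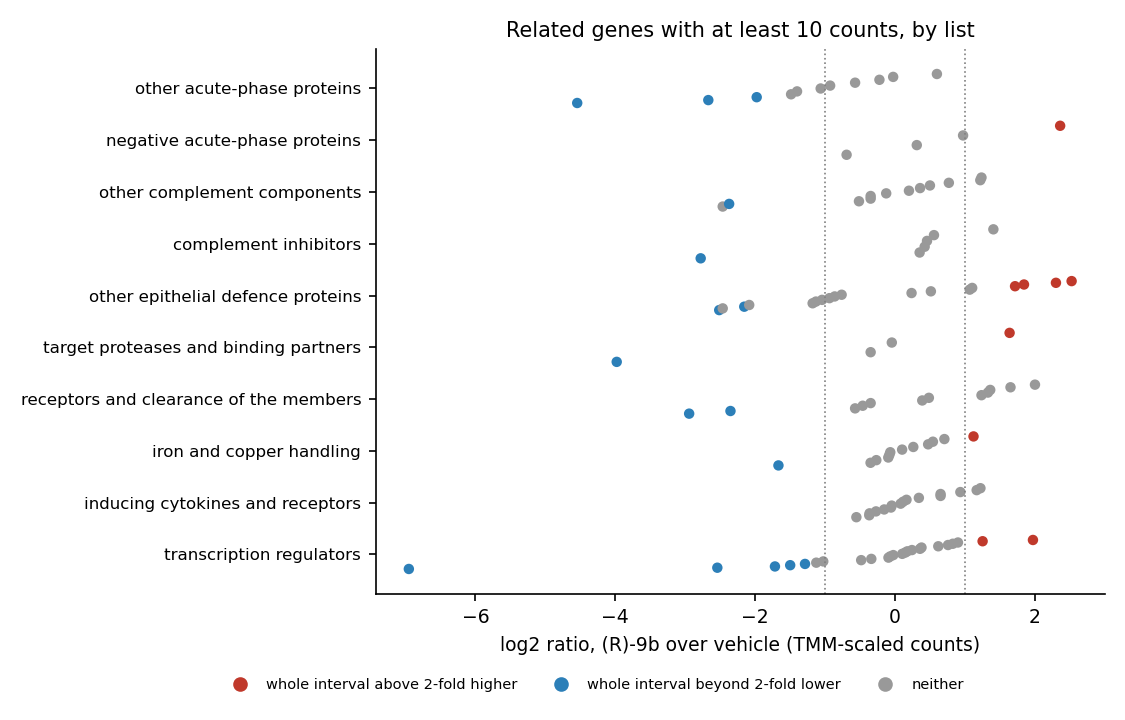
Log2 ratio of TMM-scaled counts, (R)-9b over vehicle, for each related gene with at least 10 counts, in rows by list (red, called higher; blue, called lower; grey, neither). Genes at 0 in a library are drawn at the end of their interval nearest 0, and dotted lines mark 2-fold. No other acute-phase gene plotted is called higher, and the inducing cytokines and receptors hold no call. Over all genes compared, 4.2% are called higher and 3.44% lower.

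Markers of other cell types in which these genes are also made differed in level. Of 13 hepatocyte markers, 3 had 0 counts in the vehicle library and 4 with (R)-9b, their summed level was 61.9 and 59.1 CPM, and 2 were lower (HNF4A and SERPINA1). Most of that sum came from CPS1 (1891 and 2052 counts, 28.4 and 36.3 CPM) and TTR (1687 and 886 counts, 25.3 and 15.7 CPM), which passed neither limit, and the defining marker ALB had 4 and 2 counts. Of 12 basal and squamous markers, 6 and 3 had 0 counts, and the sum was 1.13 and 1.84 CPM. The basal marker TP63 had 0 counts in both libraries, and SBSN, with 0 and 12 counts, was 4.72-fold higher set against 3 counts. Of 13 neutrophil and macrophage markers, 6 had 0 counts in each library, the sum was 1.64 and 3.13 CPM, PTPRC had 0 counts in both, and S100A9 was higher. The part of these markers in the results was not tested.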

How the data were processed

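RNA-seq of C4-2B cells was read from the tables the authors deposited, with 1 library per condition. The authors' gene table holds raw counts, which the paper's methods describe as uniquely aligned, unambiguous reads after STAR alignment. The submitters' processing notes name STAR 2.5.1a, featureCounts 1.4.6-p5 and Salmon 0.8.2 with hg38, with no roles. The deposited transcript table holds estimated counts, and the rows used sum to 83.0% and 84.5% of its CPM total. The deposited CPM and moderated log2 CPM served as alternatives. The labels name breast cancer for this line.

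Repeated lines (200) were dropped. Counts were scaled by TMM (edgeR 4.0.16, R 4.3.3), and ratios carry exact Clopper-Pearson 95% intervals (scipy 1.17.1). PCR copies are not independent molecules, so intervals and the limit of 3 counts per library cover counting error only. A gene entered the comparison when its counts in the pair of libraries summed to 10 or more. Code was tested on simulated data. No column of either table was left out of the mapping to samples, and estimates were rounded for intervals.

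Positions, exons and 150-base windows came from GENCODE 29 on GRCh38, because the deposited tables carry no coordinates. The rule named all members, their copies, overlapping genes and nearest coding neighbours, and up to 4 rises and 4 falls per list, ranked by the interval end nearest 0. TP63, PTPRC, SCGB2A2, ANKRD30A, ERBB2, TRPS1, GATA3, PGR, ESR1, CPS1, TTR, ALB, ORM1, A2M, SERPINA3, LBP, PTX3 and ITIH3 were named besides, after their values were seen. So were IL6, OSM, IL17A, IL22, IL1A and IL1B. The members and lists were chosen with earlier results of these data known.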

Additional observations from a re-analysis of the deposited data

How the results depend on the processing

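No paired analysis was possible because each condition had 1 library. The number of members past 2-fold, 5 higher and 0 lower, was within 1.5 times its value under all 10 alternatives run for it: total counts, DESeq2 1.42.0 size factors, upper quartile, TMM without mitochondrially encoded genes, halved counts (in case both mates of a pair were counted), transcript estimates, the point ratio, a minimum of 1 or 50 counts, and an added coefficient of variation of 0.1. The median log2 ratio of 3.82 was 2.82 with halved counts and 2.53 with the SAA genes summed, which by construction lower the counts set against 3 or the number of genes. No ratio changed sign. Over the alternatives, the log2 ratio ranged from 5.03 to 8.56 for SAA1, 3.82 to 7.13 for SAA2, 4.96 to 5.67 for CP, 4.37 to 5.99 for PI3, 2.82 to 4.70 for CFB, 0.87 to 1.27 for C3, 0.68 to 0.78 for LCN2, 0.32 to 0.42 for HP and 0.19 to 0.31 for SLPI. These hold 3 counts in place of a lower count, except in the deposited moderated values and in a setting with 5 counts added. By the 3-count rule the main log2 ratio was 5.83 for PI3 and 3.82 for CFB, below the 6.42 and 5.41 of the counts as they stand. The alternatives for the related lists were chosen after seeing the data. The 13 higher and 16 lower genes became 28 and 29 by the point ratio, 9 and 14 with halved counts, and 13 and 16 with total counts. Depth limits C3, HP and SAA4.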

Other observations

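Genes that act with these secreted proteins were counted in the same way. Of 8 target proteases and binding partners, 4 were compared. TGM2, a tissue transglutaminase, had 499 and 1319 counts in the vehicle and (R)-9b libraries, a log2 ratio of 1.64 (95% interval 1.49 to 1.79), and was higher. TGM1, the keratinocyte transglutaminase of the cornified envelope, had 2082 and 112 counts, a log2 ratio of -3.98 (95% interval -4.27 to -3.70), and was lower. Elafin, the product of PI3, is a known transglutaminase substrate.

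Of 18 receptors and clearance genes, 12 were compared, 0 were higher and 2 were lower, and the median log2 ratio was 0.44. LRP2 (megalin, an endocytic receptor that takes up lipocalin-2) had 24 and 0 counts and was 6.78-fold lower with 3 counts in place of 0. ITGAX (a subunit of complement receptor 4) had 136 and 15 counts, a log2 ratio of -2.94 (95% interval -3.82 to -2.17). All 12 iron and copper handling genes were compared. TFRC (the transferrin receptor) was higher with 11978 and 22132 counts (log2 ratio 1.12, 95% interval 1.09 to 1.16), and HMOX1 (haem oxygenase 1) was lower with 7897 and 2110 (log2 ratio -1.67, 95% interval -1.74 to -1.60). The summed level of these 12 genes was 2635 and 2646 CPM.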
